A study of Rattus norvegicus with 31 samples.

Results

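Tail motor neurons that had been cut off from the brain for weeks were compared with those cut off for days, using 27 arrays of the 31 in the series. All 27 came from rats with a transected spinal cord. The late set held the 16 arrays titled Spi-21 (8 arrays) and Spi-60 (8 arrays), taken 21 and 60 days after the injury. The early set held the 11 arrays titled Spi-2 (6 arrays) and Spi-7 (5 arrays), taken 2 and 7 days after it. Time points were pooled within each set, and all 12913 probe sets other than the Affymetrix controls were tested. The other 4 arrays, from uninjured animals and titled Spi-0 or Control, are given beside the results and did not enter the comparison.

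Spinal motor neurons are the cholinergic cells through which the cord drives muscle. After a transection the motor neurons below the cut keep their axons and muscles but lose the descending fibres of the brainstem, including those that release serotonin and noradrenaline and set how readily a motor neuron fires. In the first days the muscles they serve are slack. Over the following weeks reflexes return and become exaggerated, with long spasms that draw on persistent calcium and sodium currents in the motor neurons. The comparison asked which messages stood at another level in the spastic phase than in the slack one.

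Each array held the RNA of motor neurons from 1 adult male Wistar rat, whose age is not given in the sources used here. Short stretches of cord had been removed at the second sacral segment of every injured rat, so that the tail was paralysed while the limbs were spared. Fluoro-Gold, a tracer carried back to the cell body from the periphery, marked the tail motor neurons below the cut, and these were collected by laser microdissection from frozen sections. Their RNA was amplified linearly in repeated rounds before it was hybridised to an Affymetrix array of the rat genome. All 16 late arrays came from an earlier study by the same laboratory, whereas the 11 early arrays and the 4 controls were made for the later one. Phase after injury and study therefore cannot be told apart in any difference between late and early arrays, nor between late arrays and controls.

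The arrays of a phase were not all alike. On the first principal component of the 31 arrays, which carried 25.3% of the variance, 10 of the 11 early arrays lay between -31 and -0.813, and the late arrays lay between 1.04 and 36. Spi-7 replicate 5, at 18.0, fell among the late arrays. Its values were also compressed, with an interquartile range of 1.75 log2 units against 1.92 to 2.05 in the other early arrays and 1.74 to 1.93 in the late ones. Its mean correlation over all probe sets was 0.945 with the other early arrays and 0.959 with the late arrays. The label was kept, and the counts over all probe sets are given with and without it. Of the calls on genes named here, those on C9, Itgam and Stat3 were lost without it (adjusted p = 0.0652, 0.0614 and 0.0573 in that order). At the high end of the component, Spi-21 replicates 1 to 3 lay between 26.4 and 36, and they had interquartile ranges of 1.74 to 1.79. Without these 3 arrays, the calls on Adra1d, Arg1, C1s, C9, Cacna1d, Calca, Crh, Gad1, Gria2, Idh1, Itgam, Jun, Kcnh3, Lyz2, Pdha1, Scnn1g, Slc1a3, Stat3, Trem2, Tubb3 and Vip were lost. The difference between the 3′ and 5′ control probe sets of Gapdh, which grows as RNA is shortened, ran from 2.30 to 3.38 log2 units in the early arrays (median 2.96), from 1.13 to 3.97 in the late arrays (median 3.19) and from 1.80 to 2.50 in the controls.

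**Figure D1:**
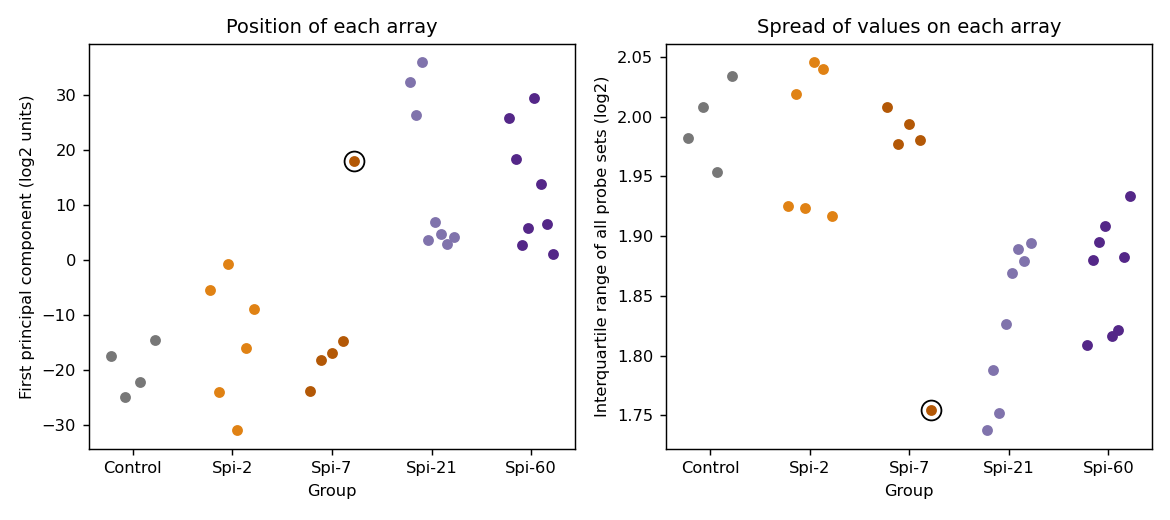
Each dot is 1 array, by group. The left panel gives its position on the first principal component of all probe sets in log2 units, and the right panel gives the interquartile range of its log2 values. The circled array, Spi-7 replicate 5, lies at 18.0 on the component while the other early arrays lie between -31 and -0.813.

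In the comparison of late with early arrays, 1339 probe sets were higher late and 1492 were lower late at an adjusted p under 0.05 (limma, Benjamini-Hochberg over all 12913). These were 10.4% and 11.6% of the probe sets tested, 21.9% together. Differences are given throughout as late minus early on the log2 scale with their standard error, and levels as log2 values. The differences were mostly small. The median size was 0.30 among the probe sets higher late and 0.46 among those lower late, and only 18 of the former and 56 of the latter passed 1 log2 unit, a doubling. The split between directions moved with the scaling of the arrays: after a further quantile normalization the counts were 1639 higher and 1168 lower late, so that the higher calls made up 58.4% of all calls in place of 47.3%. The direction also varied with the level of the probe set. Among the 4303 probe sets with a mean below 5.53, 335 were higher and 237 lower late, whereas among the 4305 with a mean of 6.71 or more, 511 were higher and 736 lower. After the further quantile normalization the counts were 297 higher and 241 lower in the former set, and 737 and 527 in the latter. The lean of the brighter probe sets toward lower calls thus depended on the scaling. Late arrays had a narrower spread of values than most early arrays, as given above, and its part in these counts was not tested beyond that normalization.

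Very few probe sets separated the phases completely. With all 27 arrays, 3 probe sets (0.0232% of those tested) had no overlap between late and early arrays. Abca2, a lipid transporter of lysosomes, lay between 6.70 and 7.31 late (median 6.94) and between 6.10 and 6.67 early (median 6.45). Kxd1, a subunit of the complexes that position lysosomes and related vesicles, lay between 6.92 and 7.34 late and between 6.67 and 6.87 early. Both were higher late, with all 16 late arrays above all 11 early ones, and no other probe set did so (0.0155% of those tested). Zcrb1, a protein of the minor spliceosome, was the only probe set that lay wholly below (0.00774%), at 5.60 to 7.58 late against 7.59 to 8.31 early. When Spi-7 replicate 5 was left out of the early arrays, 43 probe sets did not overlap (0.333% of those tested), 21 above (0.163%) and 22 below (0.170%). The genes with the widest differences among these 43 are described next. They were picked for not overlapping, so their separation is a description.

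Among the genes higher late, the widest difference was that of Cacng2 (1368759_at), known as stargazin, which carries AMPA-type glutamate receptors to the synapse. Cacng2 ranged from 5.73 to 8.55 early, with a median of 6.61, and from 8.25 to 10.10 late, with a median of 8.53. The highest early value was that of Spi-7 replicate 5, and without this array the early values ended at 7.94. Cacng2 was 1.87 ± 0.25 higher late (adjusted p = 2.58e-05), a 3.65-fold difference, and 2.03 higher without Spi-7 replicate 5. Its controls averaged 8.44 ± 0.22 (SD, n = 4), close to the late level. Adgrb2 (1378871_at), an adhesion receptor of neurons, ranged from 5.69 to 7.60 early (median 5.90) and from 6.93 to 8.16 late (median 7.49). The difference was 1.28 ± 0.16 (adjusted p = 7.63e-06), and Spi-7 replicate 5 again gave the highest early value.

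Also among the genes that separated upward, Uqcrc1, a core subunit of respiratory complex III, was 10.37 ± 0.50 (SD, n = 11) early and 11.35 ± 0.17 (SD, n = 16) late, a difference of 0.98 ± 0.13 (adjusted p = 1.87e-05). Chchd10, a protein of the mitochondrial inner membrane space that is mutated in some motor neuron disease, ranged from 10.63 to 11.86 early and from 11.59 to 12.31 late. Its difference was 0.85 ± 0.11 (adjusted p = 1.96e-05), and the late arrays overlapped the early ones only through Spi-7 replicate 5 at 11.86. Mtch1, an outer membrane protein of mitochondria, differed by 0.78 ± 0.12, and Acads, which begins the oxidation of short fatty acids, by 0.64 ± 0.09. For Ndufv3, a subunit of complex I, the separating probe set differed by 0.51 ± 0.07, and a brighter one by 0.40 ± 0.12. Bsg, the membrane partner of the lactate carriers, was 7.77 ± 0.19 (SD, n = 11) early and 8.57 ± 0.26 (SD, n = 16) late, a difference of 0.80 ± 0.09 (adjusted p = 2.98e-06). Psap, the precursor of the lysosomal saposins, differed by 0.68 ± 0.11, from 8.23 early to 8.90 late. The phosphatase Ppp5c, the corepressor Tle5 and the chromatin remodeller Chd4 differed by 0.64, 0.70 and 0.55. For the salivary protein gene Grpca, which was dim, the difference was 0.42.

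Among the genes that separated downward, the widest difference was that of Eif1a (1384147_at), which encodes a factor that helps the ribosome find the start codon. Eif1a ranged from 6.10 to 7.47 early (median 7.00) and from 4.77 to 6.46 late (median 5.85), a difference of -1.26 ± 0.18 (adjusted p = 5.38e-05). Both of its dimmer probe sets were also called lower late. Cpox, an enzyme of haem synthesis, ranged from 5.65 to 7.02 early and from 3.98 to 5.95 late, a difference of -1.17 ± 0.21 (adjusted p = 0.00034). Zcrb1 differed by -1.04 ± 0.16 (adjusted p = 6.80e-05). The lowest early value of each of these genes was that of Spi-7 replicate 5.

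The rest of the downward group was of mixed function. Ktn1, a receptor for the motor kinesin, differed by -1.05 ± 0.19, and Larp4b, which binds and stabilises messages, by -1.01 ± 0.14 (adjusted p = 3.02e-05). Another probe set of Larp4b, of similar brightness, differed by 0.09 ± 0.10 and was not called. Glcci1, a gene named for its induction by glucocorticoid, differed by -1.02 ± 0.20, while its other probe set differed by 0.29 ± 0.16 in the opposite direction and was not called. Rab21, a small GTPase of endosomes, differed by -0.92 ± 0.15. Yme1l1, a protease of the mitochondrial inner membrane, was lower late on all 3 of its probe sets, with a difference of -0.88 ± 0.15 on the separating one. Glmn, a regulator of cullin ubiquitin ligases, had little spread, at 6.16 ± 0.23 (SD, n = 11) early and 5.34 ± 0.23 (SD, n = 16) late, a difference of -0.83 ± 0.09 (adjusted p = 2.00e-06). Its other probe set was called lower late as well. Wsb1, Btbd1, Asap1, Sh3glb1 and Tma16 differed by -0.83, -0.79, -0.67, -0.66 and -0.63. A dimmer probe set of Btbd1 differed by -0.29 ± 0.14 and was not called. For Asap1 another probe set was called lower late (-0.615), while dimmer ones differed by -0.006 and 0.20 and were not called. Wsb1 and Btbd1 are adaptors of ubiquitin ligases, whereas Sh3glb1 bends membranes during autophagy.

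**Figure D2:**
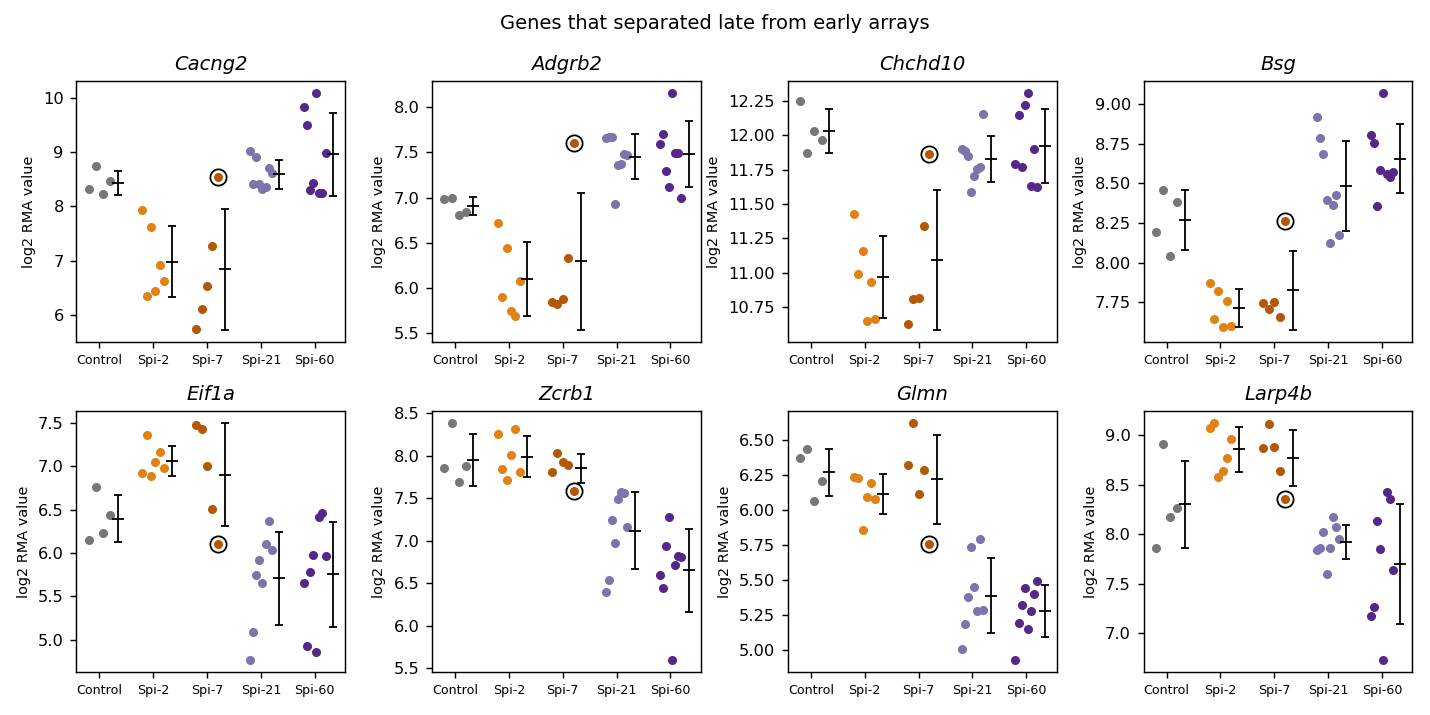
Log2 RMA values of 8 genes that separated the late from the early arrays once Spi-7 replicate 5 was set aside, 4 higher and 4 lower late. Each dot is 1 array, the bars give the mean and SD of the group, and the circle marks Spi-7 replicate 5. The genes were picked with the circled array set aside, so its place follows in part from that choice. It lies at 8.55 for Cacng2, whose means were 6.91 early and 8.78 late, and at 6.10 for Eif1a, whose means were 6.99 and 5.73.

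Injury and regeneration genes included some of the wide falls. The list held genes that injured neurons are known to switch on, together with cytoskeletal and trophic genes of axon growth. Of its 29 genes, 7 were lower and 3 higher late, 24.1% and 10.3%. In this list and those that follow each gene was taken by its brightest probe set. Over all 9769 genes taken in this way, 12% were lower and 10.4% higher. The median difference of the list was -0.15 against -0.0039 over all genes, and without Spi-21 replicates 1 to 3, 4 members were lower and 1 higher. Over all genes the calls without those arrays were 8.58% lower and 7.44% higher, without Spi-7 replicate 5 they were 15.4% and 12.7%, and after the further quantile normalization 9.38% and 13%. Atf3, the transcription factor most used as a marker of injured neurons, ranged from 7.70 to 11.88 early (median 10.22) and from 6.67 to 10.23 late (median 8.39). The ranges overlapped, and the difference was -1.71 ± 0.42 (adjusted p = 0.00512). The 4 controls averaged 6.47 ± 1.20 (SD, n = 4), so Atf3 was above the control mean in both phases. Tubb2b, a beta tubulin of growing axons, was 12.47 ± 0.35 (SD, n = 11) early, 11.47 ± 0.65 (SD, n = 16) late and 10.61 ± 0.30 (SD, n = 4) in the controls, a difference between phases of -1.0 ± 0.20 (adjusted p = 0.000945). Another tubulin, Tubb6, fell by 0.84 ± 0.17.

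Reg3b, a secreted lectin induced by injury, spread widely. It ranged from 6.92 to 11.81 early (median 10.91) and from 5.05 to 11.54 late (median 7.95), and the difference was -2.21 ± 0.69 (adjusted p = 0.0223). Its relative Reg3a differed by -0.60 ± 0.18 (adjusted p = 0.0218). The neuropeptide gene Vip and the arginine-degrading enzyme Arg1 differed by -1.48 ± 0.47 and -1.43 ± 0.45. Both were called, but the call on Vip was lost without Spi-2 replicate 5 (adjusted p = 0.053) or Spi-7 replicate 1 (adjusted p = 0.0511). Jun, the partner of Atf3, differed by -0.34 ± 0.11. Basp1, a membrane protein of growth cones, went the other way at 0.73 ± 0.14 (adjusted p = 0.000937), from 7.09 early to 7.82 late. Tubb3 and Stat3 were also higher late, by 0.46 and 0.45, and the call on Stat3 was lost without any one of several arrays, among them Spi-7 replicate 5 (adjusted p = 0.0573). A dimmer probe set of Stat3 differed by 0.18 ± 0.13 and was not called. Gal, Ngfr, Sprr1a and Hspb1, all markers of injured neurons, differed by -0.47, -0.49, -0.70 and -0.12 and were not called.

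Members of the interferon and complement lists that were called were mostly lower late. In the list of interferon response and antigen presentation genes, 7 of 39 were lower and 1 was higher late, with a median difference of -0.18. Lower calls made up 17.9% of the list, against 12% of all genes. Without Spi-21 replicates 1 to 3, 3 of the 39 were lower and 1 higher. That share of lower calls was below the 8.58% of all genes in the same setting. Ifnar1, a chain of the type I interferon receptor, was 6.82 ± 0.25 (SD, n = 11) early and 5.89 ± 0.31 (SD, n = 16) late, a difference of -0.93 ± 0.11 (adjusted p = 5.13e-06). Of its other probe sets, which were dimmer, 1 was called lower late and 2 were not called. Irf9, which carries the interferon signal to the genome, and Mx2, an antiviral gene that interferon induces, differed by -0.64 ± 0.15 (adjusted p = 0.0034) and by -0.70 ± 0.17 (adjusted p = 0.0036). The one member higher late was RT1-Ba, a class II antigen-presenting gene, at 0.28 ± 0.07. In the complement list 5 of 16 genes were lower and 1 was higher late, 31.25% lower against 12% of all genes. Without Spi-21 replicates 1 to 3, 3 were lower and 0 higher. Without Spi-7 replicate 5 the counts were 5 and 0. Cd55, which shields cells from complement, differed by -1.25 ± 0.25 (adjusted p = 0.000925), and its dimmer probe set by -0.18 ± 0.12 without a call. C1s and C1qc, which start the classical cascade, differed by -0.52 ± 0.17 and -0.86 ± 0.28. The other chains of C1q did not follow C1qc closely. C1qb differed by 0.17 without a call, and C1qa ranged from 6.07 to 8.75 early and from 5.91 to 9.62 late. C5 differed by -0.26 ± 0.07 and C9, which was dim, by 0.17 ± 0.06.

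Chemokines, cytokines and their receptors split evenly, with 7 of 86 genes higher and 6 lower late. These were 8.14% and 6.98%, against 10.4% and 12% of all genes. The members lower late included Tgfb3 (-0.57 ± 0.14), a ligand of the transforming growth factor family, and its receptor Tgfbr1 (-0.76 ± 0.20). A dimmer probe set of Tgfbr1 differed by 0.04 ± 0.08 and was not called. The members higher late lay at low levels and differed little, such as Il12b at 5.17 early and 5.49 late and Ccr3 at 5.33 and 5.57.

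Some markers of microglia and macrophages were lower late as well. Of 19 measured markers, 6 were lower and 2 higher late, with a median difference of -0.18. The lower calls made up 31.6%, against 12% of all genes. Without Spi-21 replicates 1 to 3, 3 were lower and 0 higher. The mean level of the list ran from 6.03 to 7.60 in the early arrays, from 5.74 to 7.18 in the late arrays and from 5.70 to 5.96 in the controls. Aif1, the cytoskeletal marker of microglia, was 6.99 ± 0.92 (SD, n = 11) early, 5.47 ± 0.89 (SD, n = 16) late and 5.25 ± 0.42 (SD, n = 4) in the controls, a difference between phases of -1.52 ± 0.33 (adjusted p = 0.00169). Lyz2, the lysozyme of macrophages, and C1qc were lower late too, but the Lyz2 call was lost without Spi-2 replicate 5 (adjusted p = 0.0561) or Spi-7 replicate 1, and the C1qc call without those arrays or Spi-2 replicate 4 (adjusted p = 0.0591). Both markers higher late differed little, Trem2 by 0.25 and Itgam by 0.20, and Trem2 missed the threshold without Spi-2 replicate 2 (adjusted p = 0.0539) and Itgam without Spi-7 replicate 5 (adjusted p = 0.0614). Cx3cr1 and Ptprc, which define these cells, stayed between 5.03 and 6.08 on average in both phases and were not called. In captured tissue fewer cells of a type and less RNA per cell cannot be told apart, and the part of these cells in the immune and complement results was not tested.

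**Figure D3:**
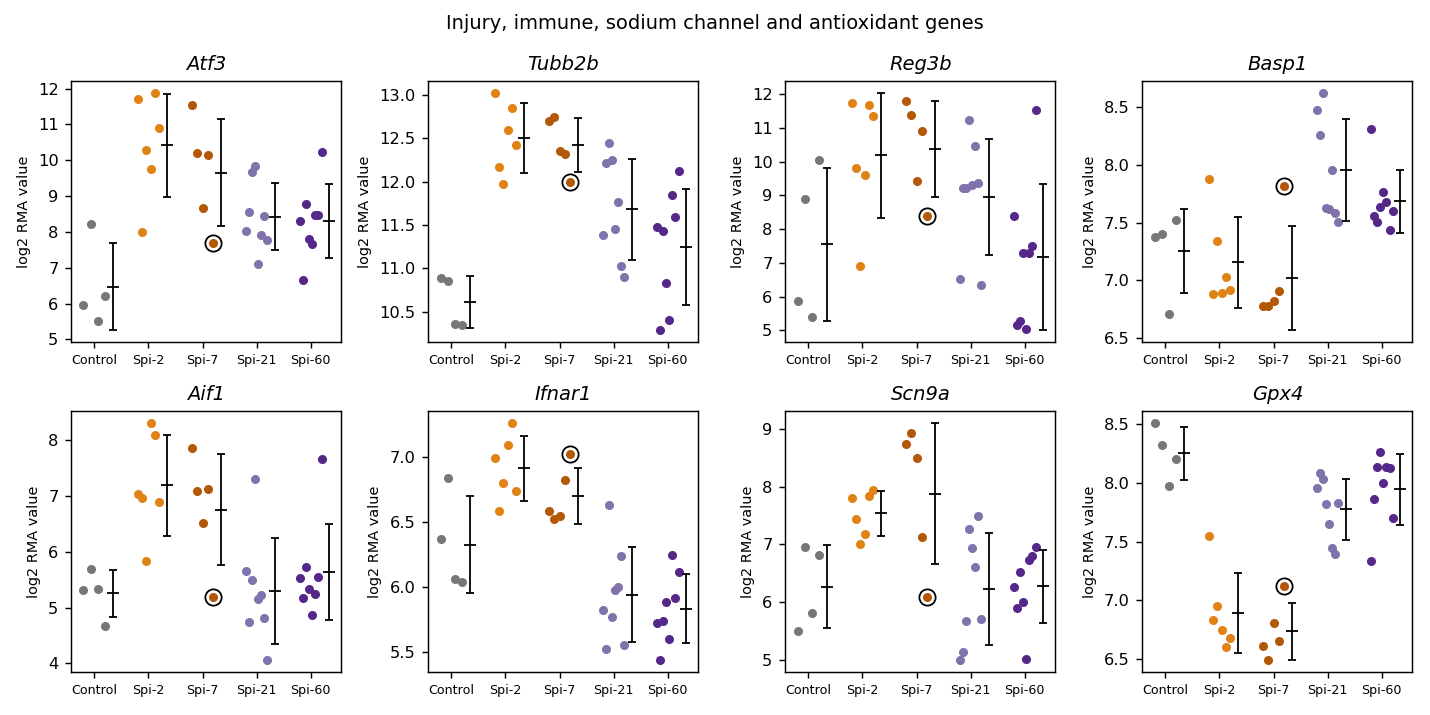
Log2 RMA values of 8 genes of injury, immunity, excitability and oxidant defence. Each dot is 1 array, the bars give the mean and SD of the group, and the circle marks Spi-7 replicate 5. The means of Atf3 and Tubb2b stand above the control mean in every injured group and are lower late than early, while those of Basp1 and Gpx4 are higher late. Single values of Atf3 overlap, with Control replicate 2 at 8.23.

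The samples had the markers of motor neurons. Neurofilament genes were among the brightest of all, with Nefh at 14.12 early and 14.14 late and Nefl at 13.81 and 13.73. Prph, the filament of peripherally projecting neurons, and Slc5a7, the choline transporter, stood at 12.89 and 10.45 late. Isl1 and Isl2, transcription factors that specify motor neurons in the embryo, were dim, at 5.72 and 5.65 late. Of 14 motor neuron markers, 1 was higher and 1 lower late, 7.14% each, against 10.4% and 12% of all genes. Slc18a3, which loads acetylcholine into vesicles, was the one higher (difference 0.67 ± 0.18, adjusted p = 0.011). Calca, which encodes calcitonin gene-related peptide, was the one lower (-0.65 ± 0.23), a call that several alternatives lost, among them the one without Spi-2 replicate 3 (adjusted p = 0.0742). Dimmer probe sets of Calca differed by -0.05 ± 0.10 and -0.11 ± 0.11 and were not called.

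RNA of neighbouring cells was present as well, and some of it differed between phases. The counts below stand beside 10.4% higher and 12% lower over all genes. Gfap of astrocytes stood at 8.87 in the controls, 10.81 early and 10.45 late and was not called between phases. Of 11 astrocyte markers 2 were higher late, Aldoc (difference 0.81 ± 0.12, adjusted p = 7.01e-05) and S100b (0.45 ± 0.13), and 2 lower, Vim (-1.49 ± 0.46) and the glutamate transporter Slc1a3 (-0.56 ± 0.18). A dimmer probe set of Slc1a3 differed by -0.02 ± 0.08 and was not called. The mean level of the astrocyte list ran from 7.97 to 8.92 early and from 7.83 to 8.99 late. Mbp, a structural protein of myelin, was 8.73 ± 0.41 (SD, n = 11) early, 9.65 ± 0.56 (SD, n = 16) late and 10.65 ± 0.87 (SD, n = 4) in the controls, with a difference between phases of 0.92 ± 0.18 (adjusted p = 0.000974). Dimmer probe sets of Mbp differed by 0.29 ± 0.09 with a call and by 0.25 ± 0.11 without. Mog, which lies on the outer face of myelin, went down by contrast (-0.47 ± 0.14), and in all 2 oligodendrocyte markers were higher and 1 lower of 17. The mean level of that list ran from 7.11 to 8.05 early and from 7.02 to 7.90 late. Gad1, which makes the inhibitory transmitter GABA in interneurons, differed by -1.14 ± 0.37. By brightest probe set, 1 of 11 interneuron markers was lower and 0 higher. A dimmer probe set of Lhx5, a transcription factor of interneurons, was higher late by 0.27 ± 0.09 (adjusted p = 0.0335). The other probe set of Gad1 was dim and not called, and the call on the brighter one was lost without Spi-2 replicate 5 (adjusted p = 0.0557) or Spi-7 replicate 1. The interneuron list averaged 5.80 to 6.63 early and 5.67 to 6.27 late. Endothelial markers gave 1 lower and 0 higher of 10, and blood and lymphoid markers 2 higher and 0 lower of 12. The endothelial list averaged 5.64 to 6.31 early, 5.56 to 5.96 late and 5.54 to 5.97 in the controls. The blood list averaged 5.40 to 6.65 early, 5.46 to 5.69 late and 5.41 to 5.76 in the controls. Spi-2 replicate 4 stood highest of the early arrays in both lists. In it S100a8 and S100a9, calcium-binding proteins of neutrophils, stood at 7.87 and 8.77, against at most 5.30 and 5.89 in the other early arrays. Vwf of endothelial cells stood at 9.77 against at most 7.01. The part of these cells in the results that follow was not tested.

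Sodium channel genes gave 3 lower and 3 higher late of 11, 27.3% each, against 12% and 10.4% of all genes. Scn9a, the channel known as Nav1.7, ranged from 6.10 to 8.93 early (median 7.81) and from 5.00 to 7.49 late (median 6.39), a difference of -1.44 ± 0.29 (adjusted p = 0.00112). Scn3b, an auxiliary subunit that sets how sodium channels open and recover, was 8.89 ± 0.79 (SD, n = 11) early and 7.69 ± 0.67 (SD, n = 16) late, a difference of -1.20 ± 0.26 (adjusted p = 0.00188), and its dimmer probe set was called lower as well. Scn2a, a channel of central axons, differed by -0.47 ± 0.13. The controls of Scn9a and Scn3b averaged 6.27 and 7.68, near the late levels. The members higher were dim, with late means of at most 6.05. They were Scn10a, a channel known from sensory neurons (0.23 ± 0.07), and Scnn1a and Scnn1g, subunits of the epithelial sodium channel, which is not voltage-gated (0.32 ± 0.08 and 0.19 ± 0.07). Dimmer probe sets of Scnn1a and Scnn1g differed by 0.07 ± 0.06 and 0.19 ± 0.08 and were not called.

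By brightest probe set, no potassium channel gene was called lower late. Of 64 potassium and HCN channel genes, 10 were higher and 0 lower late, 15.6% against 10.4% of all genes for the higher calls. Kcna1, which encodes the Kv1.1 channel that restrains firing near the axon, was at 9.60 ± 0.22 (SD, n = 11) early and 10.19 ± 0.38 (SD, n = 16) late, a difference of 0.59 ± 0.12 (adjusted p = 0.00118). Kcnh2, which carries a repolarising current, differed by 0.40 ± 0.06 (adjusted p = 6.80e-05), and Kcnk9, a leak channel, by 0.40 ± 0.09 (adjusted p = 0.00317). The other members called differed by at most 0.31, and all 10 except Kcna1 had late means of at most 7.04. The median difference of the list was 0.06, and without Spi-21 replicates 1 to 3, 6 members were higher and 0 lower. Over all probe sets of these genes 12 were higher and 1 was lower, a dimmer probe set of the leak channel Kcnk6 (-0.41 ± 0.12).

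Calcium channel genes gave 4 higher and 2 lower late of 23, 17.4% and 8.70% against 10.4% and 12% of all genes. Beside Cacng2, which shares their family name, the members higher late were Cacna1h (difference 0.49 ± 0.14, adjusted p = 0.0112), a T-type channel that opens near rest, Cacna1a (difference 0.29 ± 0.06, adjusted p = 0.00216) and Cacna1b (0.30 ± 0.08), the P/Q-type and N-type channels of nerve terminals. A dimmer probe set of Cacna1a differed by 0.11 ± 0.07 and was not called. Cacna1d, the L-type channel through which persistent calcium currents of motor neurons flow, was lower by 0.27 ± 0.10. Without Spi-21 replicates 1 to 3 that call was lost (adjusted p = 0.11), and 5 calcium channel genes were higher and 0 lower. In the chloride list 4 of 31 genes were higher and 3 lower, 12.9% and 9.68%, near the shares of all genes. Clcn3, a chloride and proton exchanger of endosomes and synaptic vesicles, was 7.09 ± 1.37 (SD, n = 11) early and 8.64 ± 0.53 (SD, n = 16) late, a difference of 1.55 ± 0.35 (adjusted p = 0.00245), and its dimmer probe set rose as well. The ranges of Clcn3 overlapped, at 6.03 to 9.84 early and 7.53 to 9.49 late. Spi-2 replicate 1 at 9.84 and Spi-7 replicate 5 at 9.68 lay above every late array. Slc4a3, which exchanges chloride for bicarbonate, differed by 0.54 ± 0.11 (adjusted p = 0.000869). None of the 8 sodium-potassium ATPase genes was called, and the list's differences ran from -0.66 to 0.19.

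Glutamate receptor genes changed in both directions, 4 higher and 3 lower late of 21. These were 19% and 14.3%, against 10.4% and 12% of all genes. The members higher were Grina (difference 0.75 ± 0.13, adjusted p = 0.000223), a membrane protein named for its association with the NMDA receptor, the NMDA receptor subunits Grin1 (0.36 ± 0.10) and Grin3b (difference 0.67 ± 0.15, adjusted p = 0.00282), the latter typical of motor neurons, and the kainate subunit Grik5 (difference 0.39 ± 0.07, adjusted p = 0.000383). For Grin3b, Spi-7 replicate 5 at 9.45 lay above every late array, which reached at most 9.31. Those lower were the AMPA subunits Gria2 (-0.32 ± 0.11) and Gria4 (-0.48 ± 0.13) and the kainate subunit Grik2 (-0.35 ± 0.11). A dimmer probe set of Gria4 differed by 0.13 ± 0.10 and was not called. The call on Gria2 was lost without any one of several arrays, including Spi-2 replicate 3 (adjusted p = 0.0607). Of 21 GABA and glycine receptor genes 3 were higher and 0 lower, 14.3% higher, among them Gabbr1, a subunit of the GABA-B receptor, at 0.31 ± 0.09. Another probe set of Gabbr1, of similar brightness, differed by 0.13 ± 0.08 and was not called.

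Acetylcholine and monoamine receptors had 11 members higher and 1 lower late of 45, 24.4% and 2.22% against 10.4% and 12% of all genes. After the further quantile normalization 8 were higher, where 13% of all genes were. Without Spi-21 replicates 1 to 3, 5 were, where 7.44% of all genes were. The members called were all dim, with late means of 4.82 to 6.51, and the differences were small. The nicotinic subunits Chrna6 and Chrna4 differed by 0.28 ± 0.06 and 0.35 ± 0.08, the dopamine receptor Drd5 by 0.44 ± 0.12, and the serotonin receptor Htr2b, the one lower, by -0.37 ± 0.10. Htr2a and Htr2c, the serotonin receptors most tied to motor neuron excitability, differed by 0.06 ± 0.06 and -0.12 ± 0.06 and were not called.

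Genes of transmitter release stood higher late more often than lower. Of 52 synaptic vesicle and release genes 13 were higher and 3 lower, 25% and 5.77% against 10.4% and 12% of all genes. Without Spi-21 replicates 1 to 3, 8 were higher and 2 lower. Syp, the vesicle protein synaptophysin, was 9.73 ± 0.23 (SD, n = 11) early, 10.31 ± 0.28 (SD, n = 16) late and 9.28 ± 0.34 (SD, n = 4) in the controls, with a difference between phases of 0.58 ± 0.10 (adjusted p = 0.000318). Napa, which helps to take fused vesicle complexes apart, differed by 0.38 ± 0.10 (adjusted p = 0.00889), and Rab3d, a vesicle GTPase, was lower by 0.43 ± 0.11. Among neuropeptide and granin genes, 2 of 25 were higher and 3 lower, 8% and 12%, near the shares of all genes. Pcsk1n, the inhibitor of a prohormone convertase, rose from 7.42 ± 0.34 (SD, n = 11) to 8.50 ± 0.65 (SD, n = 16), a difference of 1.08 ± 0.20 (adjusted p = 0.00049), and Cck, which encodes cholecystokinin, by 0.50 ± 0.11 (adjusted p = 0.00177). Crh, which encodes the peptide that drives the stress axis, was lower by 0.53 ± 0.16. Without Spi-21 replicates 1 to 3 that call was lost (adjusted p = 0.0557), and 2 neuropeptide and granin genes were higher and 0 lower. Calmodulin, CaM kinase and calcium handling genes gave 6 higher and 2 lower of 39, 15.4% and 5.13%. They were led by Camk2n1, an inhibitor of CaM kinase II (difference 0.46 ± 0.07, adjusted p = 0.000149), and the kinase subunit Camk2g (difference 0.63 ± 0.14, adjusted p = 0.00262). Without Spi-21 replicates 1 to 3, 5 of the list were higher and 0 lower. Prkaca, the catalytic subunit of protein kinase A, differed by 0.82 ± 0.10 (adjusted p = 7.63e-06).

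In oxidative phosphorylation 11 of 68 genes were higher and 3 lower late, 16.2% and 4.41% against 10.4% and 12% of all genes. Uqcrc1 was in the lead, followed by the cytochrome oxidase subunits Cox6a1 (difference 0.50 ± 0.10, adjusted p = 0.000985) and Cox4i1 (difference 0.64 ± 0.14, adjusted p = 0.00263). In glycolysis 6 of 20 were higher and 1 lower, 30% and 5%, and without Spi-21 replicates 1 to 3, 5 were higher and 1 lower. Gpi and Pfkm, which act on the hexose phosphates, differed by 0.58 ± 0.12 and 0.42 ± 0.09, Aldoa by 0.55 ± 0.14, and Aldoc, counted above among the astrocyte markers, by 0.81. Dimmer probe sets of Pfkm differed by 0.23 ± 0.08 with a call and by 0.12 ± 0.08 without. Pgk1 was the one lower (-0.37 ± 0.11). In the tricarboxylic acid cycle 3 of 24 genes were lower and 0 higher, 12.5% lower against 12% of all genes. Those lower were Dld (-0.73 ± 0.20), Idh1 (-0.44 ± 0.14) and Pdha1 (-0.41 ± 0.13). A dimmer probe set of Pdha1 differed by -0.11 ± 0.07 and was not called. With Spi-21 replicates 1 to 3 left out, 1 was lower and 1 higher.

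Over all genes lower calls outnumbered higher ones slightly, 12% against 10.4%. RNA splicing and cytosolic ribosomal protein genes leaned further toward lower calls. Of 115 RNA splicing genes, 33 were lower and 3 higher late, 28.7% lower against 12% of all genes, with a median difference of -0.14. After the further quantile normalization 21 were lower, without Spi-7 replicate 5, 37 were, and without Spi-21 replicates 1 to 3, 23 were. Hnrnpa1, an abundant binder of nuclear RNA, was 9.20 ± 0.33 (SD, n = 11) early and 8.22 ± 0.46 (SD, n = 16) late, a difference of -0.98 ± 0.15 (adjusted p = 0.000103), and its dimmer probe set differed by -0.34 ± 0.14 without a call. Ddx5, an RNA helicase, differed by -0.84 ± 0.18 (adjusted p = 0.00181), and Rbm17, a splicing factor, by -0.62 ± 0.10 (adjusted p = 0.000201). A dimmer probe set of Rbm17 differed by -0.06 ± 0.10 and was not called. Of 42 cytosolic ribosomal protein genes 8 were lower and 0 higher, 19% lower, with a median difference of -0.21. Rpl21 differed by -0.56 ± 0.09 (adjusted p = 0.0002), Rpl24 by -0.63 ± 0.12 and Rpl23a by -0.74 ± 0.15. The count of ribosomal genes lower late was 14 without Spi-7 replicate 5 and 8 without Spi-21 replicates 1 to 3. Ribosomal protein genes have many near-identical copies in the genome, so a probe set may report more than 1 of them.

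Translation factors and tRNA synthetases included a pair of related genes called in opposite directions. Eef1a1 and Eef1a2 encode the alternative forms of the factor that brings aminoacyl-tRNA to the ribosome, and neurons are known to pass from the first to the second as they mature. Eef1a1 was 10.63 ± 0.76 (SD, n = 11) early and 9.09 ± 0.64 (SD, n = 16) late, a difference of -1.54 ± 0.25 (adjusted p = 0.00015), and its dimmer probe set was called lower too. Eef1a2 was 7.28 ± 0.37 (SD, n = 11) early and 8.24 ± 0.42 (SD, n = 16) late, a difference of 0.97 ± 0.15 (adjusted p = 9.16e-05). Levels of the 2 probe sets cannot be set against each other, so the values show unequal change and not which form was more abundant. Eif5a, which eases the ribosome over difficult stretches, was higher by 0.78 ± 0.10 (adjusted p = 1.35e-05). In all, 15 of 72 genes in the list were lower and 7 higher, 20.8% and 9.72% against 12% and 10.4% of all genes. Nucleolar and ribosome assembly genes gave 8 lower and 4 higher of 43, 18.6% and 9.30%, with Nop58 at -0.70 ± 0.12 and Nop53 at 0.87 ± 0.13. Mitochondrial ribosome genes gave 6 lower and 3 higher of 68, 8.82% and 4.41%, both below the shares of all genes. After the further quantile normalization the nucleolar list had 4 lower and 6 higher, and the mitochondrial ribosome list 4 lower and 7 higher.

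Protein turnover genes were called in both directions. In the proteasome 6 of 41 genes were higher and 5 lower late, 14.6% and 12.2% against 10.4% and 12% of all genes. The leading falls were those of Psmc6 (-0.66 ± 0.10) and Psmd14 (-0.79 ± 0.16). A dimmer probe set of Psmd14 differed by -0.07 ± 0.11 and was not called. Ubiquitin enzymes gave 20 higher and 23 lower of 136, 14.7% and 16.9%. The ubiquitin ligase Rnf20, which marks histone H2B, differed by -0.56 ± 0.08 (adjusted p = 2.69e-05), and Fbxo2, a ligase subunit of neurons that recognises sugar chains, by 0.70 ± 0.11 (adjusted p = 0.000129). A dimmer probe set of Rnf20 differed by 0.09 ± 0.08 and was not called. Among lysosome and autophagy genes 9 of 49 were higher and 6 lower, 18.4% and 12.2%. The protease Ctsd was higher (difference 0.81 ± 0.13, adjusted p = 0.000124), as was the proton pump subunit Atp6v1b2 (0.75 ± 0.15), and the membrane protein Lamp2 was lower (-0.48 ± 0.10). Heat shock proteins and chaperones gave 10 lower and 7 higher of 84, 11.9% and 8.33%. ER stress genes gave 4 lower and 2 higher of 29, 13.8% and 6.90%.

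Gpx4, the enzyme that removes lipid peroxides and thereby restrains ferroptosis, was higher late. It ranged from 6.49 to 7.54 early (median 6.75) and from 7.33 to 8.27 late (median 7.91), a difference of 1.04 ± 0.11 (adjusted p = 2.00e-06). The controls averaged 8.25 ± 0.23 (SD, n = 4), above both phases. In the antioxidant list 4 of 44 genes were higher and 6 lower, 9.09% and 13.6% against 10.4% and 12% of all genes. Gstp1, a glutathione transferase, was higher by 0.50 ± 0.10, and Gclm, which takes part in glutathione synthesis, was lower by 0.61 ± 0.12. Apoe, the lipid carrier made mainly by glia, belongs to none of the lists and was picked after its values were seen. It was 6.33 ± 0.72 (SD, n = 11) early, 7.89 ± 0.49 (SD, n = 16) late and 7.67 ± 0.77 (SD, n = 4) in the controls, with a difference between phases of 1.55 ± 0.22 (adjusted p = 2.83e-05).

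The remaining lists had few calls or no clear direction, beside 10.4% higher and 12% lower over all genes. Tubulins, neurofilaments and motors gave 11 higher and 11 lower late of 65, with the dynactin subunit Dctn6 (difference 0.56 ± 0.09, adjusted p = 0.000114) and Map1b (0.35 ± 0.07), a microtubule protein of axons, among the former. A dimmer Map1b probe set was called higher late (0.30 ± 0.11), and another differed by -0.14 ± 0.12 without a call. Histone and chromatin genes gave 10 and 10 of 82, C2H2 zinc finger genes 15 and 19 of 144, and apoptosis genes 2 and 1 of 31. Immediate early genes gave 2 and 1 of 18, with Myc the one lower (-0.49 ± 0.11). The counts were 3 and 5 of 39 for cadherins and neural adhesion, 5 and 3 of 37 for axon guidance, and 4 and 5 of 78 for extracellular matrix and proteases. They were 7 and 5 of 53 for amino acid, glucose and lactate carriers, 7 and 7 of 59 for G proteins and cyclic nucleotide enzymes, 7 and 5 of 45 for MAP kinases, and 2 and 3 of 18 for cholesterol synthesis. Without Spi-21 replicates 1 to 3, counts that moved by over 1.5 times included those of zinc finger genes, with 9 higher and 10 lower, matrix genes and proteases, with 2 and 2, carriers, with 3 and 2, G proteins and cyclic nucleotide enzymes, with 4 and 4, antioxidant genes, with 4 and 3, and the proteasome, with 6 and 3. The balance of several lists turned toward higher calls after the further quantile normalization, which gave 8 higher and 4 lower antioxidant genes, 7 and 4 mitochondrial ribosome genes, 6 and 4 nucleolar genes, 25 and 20 ubiquitin enzymes, 12 and 11 heat shock proteins and chaperones, 3 and 2 neuropeptides, 7 and 5 cadherins and neural adhesion genes, and 7 and 5 matrix genes and proteases.

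**Figure D4:**
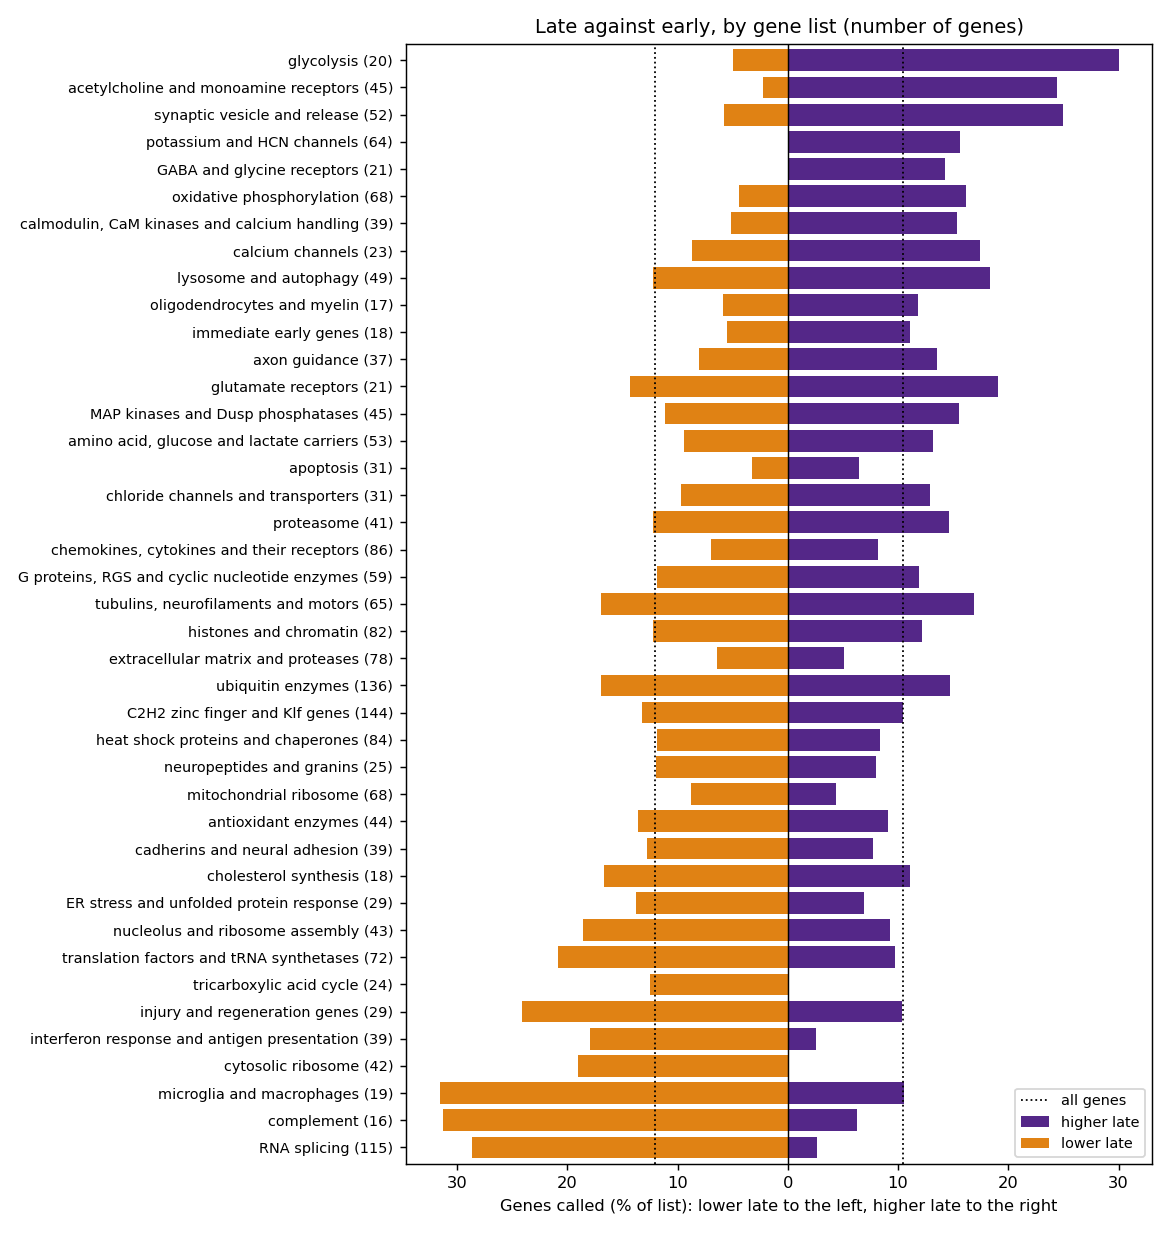
Share of each gene list called higher late (bars to the right) or lower late (bars to the left), in percent of the genes measured, for lists of at least 15 genes. Dotted lines mark the share over all 9769 genes, 10.4% higher and 12% lower. Lists are ordered by the share higher minus the share lower, so that glycolysis (30% higher) stands at the top and RNA splicing (28.7% lower) at the bottom.

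The pooled difference was also taken apart by time point, in a fit with a mean for each of the 4 injured groups. Between studies, 770 probe sets were higher and 928 lower in Spi-21 than in Spi-2, 5.96% and 7.19% of those tested and 13.1% together. In Spi-60 against Spi-2, 632 were higher and 661 lower, 4.89% and 5.12% and 10% together. Against Spi-7 the counts were 202 higher and 182 lower for Spi-21, 1.56% and 1.41% and 2.97% together, and 286 and 172 for Spi-60, 2.21% and 1.33% and 3.55% together. Without Spi-7 replicate 5 they rose to 584 and 850 for Spi-21 and 461 and 599 for Spi-60. Within a study no probe set passed between Spi-60 and Spi-21 or between Spi-7 and Spi-2 in this limma fit, where 1503 and 430 had an unadjusted p under 0.05. With Spi-21 replicates 1 to 3 left out, 129 probe sets were higher and 48 lower in Spi-60 than in Spi-21.

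Group means show where named genes stood at each time point. Cacng2 averaged 6.97 in Spi-2, 6.84 in Spi-7, 8.60 in Spi-21 and 8.96 in Spi-60. Gpx4 averaged 6.89, 6.74, 7.78 and 7.94 in the same order, and Eif1a 7.06, 6.90, 5.71 and 5.75. Atf3 averaged 10.43 and 9.65 at the early times and 8.42 and 8.30 at the late ones. Scn9a averaged 7.53, 7.88, 6.23 and 6.27, and Aif1 7.18, 6.75, 5.30 and 5.63. In each of these genes both late means lay on the same side of both early means. Their pooled difference had been called, so this follows in large part from the choice of genes. Of all 2831 probe sets called in the pooled comparison, 2820 had the same sign in all 4 pairs of late and early times. This too follows in large part from their choice by the pooled difference of the same arrays. Only 111 were called in all 4 pairs, and 935 in none.

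**Figure D5:**
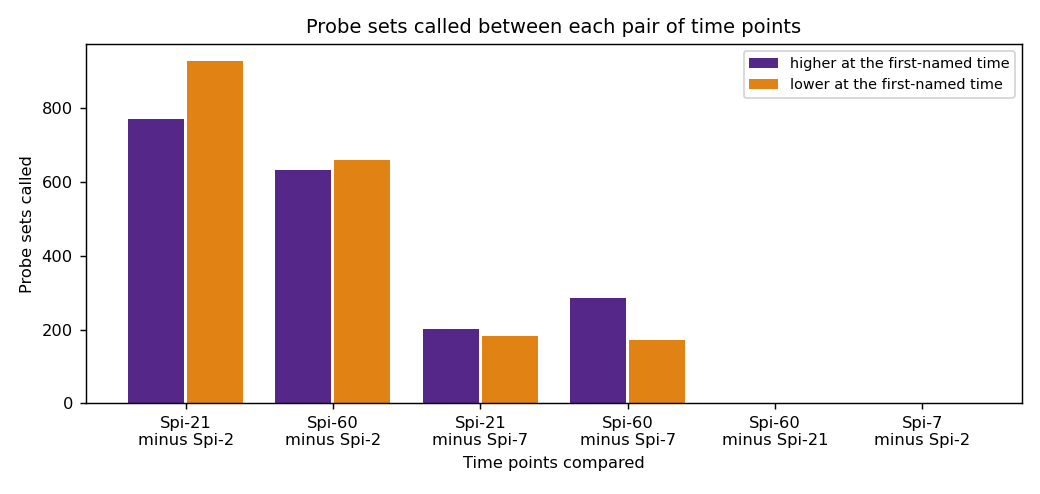
Number of probe sets called (adjusted p under 0.05) between each pair of injured time points, higher or lower at the first-named time. The first 4 pairs cross the studies and run from 172 to 928 probe sets in a direction. The last 2 pairs lie within a study and have none.

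The uninjured controls help to place the levels, and the early arrays share their study with them. Against the controls, 488 probe sets were higher and 794 lower in the early arrays, 3.78% and 6.15% of those tested and 9.93% together. In the late arrays 877 were higher and 1554 lower than in the controls, 6.79% and 12% and 18.8% together. These comparisons share arrays with the main one and are given side by side. Cacng2 was -1.53 early minus control (adjusted p = 0.0186) and 0.34 late minus control (adjusted p = 0.416). Gpx4 was -1.43 (adjusted p = 8.33e-05) and -0.39 (adjusted p = 0.0682), and Chchd10 -1.0 (adjusted p = 0.0031) and -0.15 (adjusted p = 0.402). These genes were below the controls early, and their late difference from the controls was not called. Scn9a was 1.42 early minus control (adjusted p = 0.0388) and -0.02 late minus control (adjusted p = 0.978), and Aif1 was 1.73 (adjusted p = 0.0163) and 0.21 (adjusted p = 0.756). Both were above the controls early, with no call late. Atf3 was above the controls in both phases, by 3.60 early (adjusted p = 0.00458) and 1.89 late (adjusted p = 0.01). Of other named genes, some had no call against the controls early and a call late. Zcrb1 was -0.02 early minus control (adjusted p = 0.94) and -1.07 late minus control (adjusted p = 0.00497), Glmn -0.11 (adjusted p = 0.66) and -0.94 (adjusted p = 0.000104), and Pcsk1n 0.12 (adjusted p = 0.763) and 1.20 (adjusted p = 0.0093).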

How the data were processed

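Gene expression was measured on Affymetrix rat genome arrays in laser-microdissected tail motor neurons, 1 array per rat. The authors kept the probe sets that Ensembl annotates, corrected the arrays for background, normalized the perfect-match probe intensities by quantiles, summarised each probe set by the Robust Multi-array Average (RMA), and corrected the summaries for background and normalized them by quantiles once more. The deposited values are log2 RMA summaries, for 12919 probe sets. Their interquartile range differs between arrays, as the report gives, whereas a last step of quantile normalization would have made it equal. At which of these steps the deposited values were taken is therefore not known. The RMA version is not given in the sources used here. Arrays carry no read depth, so their number limits the precision, and compression by background correction or normalization can narrow differences of dim probe sets.

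Leaving aside 6 Affymetrix controls, 12913 probe sets were tested. Groups followed the sample labels. Late arrays (Spi-21 and Spi-60) were set against early arrays (Spi-2 and Spi-7) with limma 3.58.1 in R 4.3.3 (lmFit and eBayes, two-sided), with Benjamini-Hochberg adjustment over all probe sets, and adjusted p below 0.05 was called. The methods' own design treated each time point as a condition, and contrasts between time points came from a fit with a mean for each of the 4 injured groups. Early and late arrays were each set against Control in fits of their own. The platform's annotation, which can be old, gives a single symbol for 11880 probe sets, several for 320 and no symbol for 713. Gene lists matched whole symbols, with 1 probe set per gene, the brightest over the 27 injured arrays.

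The text names up to 14 genes in each direction with the widest difference among called probe sets without overlap of late and early arrays, up to 3 called members of each list by p, defining markers of cell types, and genes of known role in the pathways shown. Since 3 probe sets met the first rule over all arrays, it was applied after leaving out Spi-7 replicate 5, a choice made after seeing the data, as were the list counts without that array and without Spi-21 replicates 1 to 3. The members, lists and tests were all chosen with earlier results of these data known. In simulated data with 200 changed probe sets of 12913, this comparison found 85.1% of changes of 0.5 log2 units, 98.5% of changes of 1 and all of 2, with 14 false calls. The simulated noise was normal and independent between probe sets and arrays, with no outlying array and no difference in spread between phases. The real arrays had both, so these rates check the procedure and do not give its error rate here. Alternatives covered the model, the arrays fitted, a quantile normalization, a filter on dim probe sets, array weights, an intensity trend, the Gapdh 3′ minus 5′ difference as covariate, replicate number as a block and each array left out.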

Additional observations from a re-analysis of the deposited data

Results flagged for a closer look

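In each of the 5 groups of arrays, the genes named in the report were searched for an array that stood far from the others of its group, by a gap that Dixon's test finds in about 1 of 20 groups by chance. Over 159 genes, 795 such tests gave 72 values that stood apart, given here on the log2 scale. Of these, 23 were from Spi-7 replicate 5, a share that follows in part from the choice of genes, since those searched include the ones picked for separating the phases once this array was left out. It stood above the other 4 Spi-7 arrays for Acads at 7.72, Adgrb2 at 7.60, Basp1 at 7.82, Bsg at 8.27, Mtch1 at 9.35, Napa at 9.30, Tle5 at 7.62 and Trem2 at 6.40. It stood below them for Adra1d at 5.32, Asap1 at 6.41, C9 at 5.15, Cpox at 5.65, Ddx5 at 7.82, Dld at 6.34, Hnrnpa1 at 8.40, Itgam at 4.80, Nop58 at 9.14, Psmd14 at 9.42, Rbm17 at 7.99, Rpl24 at 7.43, Scn2a at 5.08, Wsb1 at 7.06 and Yme1l1 at 5.43. 

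Spi-2 replicate 1 stood above the other Spi-2 arrays for Chrna4 at 5.34, Clcn3 at 9.84, Grik5 at 5.85, Grin3b at 8.69 and Kcnk12 at 6.09, and below them for Hspb1 at 12.14, Nop58 at 9.32 and Prph at 11.83. Spi-2 replicate 2 stood above the other Spi-2 arrays for Pdha1 at 9.89, and below them for Ngfr at 6.05. Spi-2 replicate 3 stood above the other Spi-2 arrays for Adra1d at 6.50. Spi-2 replicate 4 stood above the other Spi-2 arrays for C1s at 10.20, Kcnk6 at 6.00, Myc at 6.48, S100a8 at 7.87, S100a9 at 8.77, Vim at 12.44 and Vwf at 9.77. Spi-2 replicate 5 stood above the other Spi-2 arrays for Sprr1a at 9.08 and Tgfb3 at 8.94. Spi-7 replicate 1 stood below the other Spi-7 arrays for Abca2 at 6.10. Spi-7 replicate 4 stood below the other Spi-7 arrays for Dctn6 at 10.15. Spi-21 replicate 4 stood above the other Spi-21 arrays for Arg1 at 10.81, C1qc at 8.70 and Tgfbr1 at 8.93, and below them for Adgrb2 at 6.93 and Clcn3 at 7.53. Spi-21 replicate 7 stood below the other Spi-21 arrays for Aldoc at 11.65, Cck at 8.15, Prph at 12.40 and Stat3 at 6.27. Spi-60 replicate 1 stood above the other Spi-60 arrays for Basp1 at 8.32. Spi-60 replicate 4 stood above the other Spi-60 arrays for Adra1d at 7.12. Spi-60 replicate 8 stood above the other Spi-60 arrays for Aif1 at 7.65, Gad1 at 8.75, Irf9 at 6.78, Lyz2 at 10.19 and Reg3a at 6.83. Control replicate 1 stood below the other Control arrays for Cacna1h at 5.35 and Camk2g at 5.53. Control replicate 2 stood above the other Control arrays for Gstp1 at 8.92, and below them for Itgam at 5.10. Control replicate 3 stood above the other Control arrays for Chrna6 at 5.58, Crh at 5.55 and S100a8 at 5.71, and below them for Stat3 at 6.53. Control replicate 4 stood below the other Control arrays for Gad1 at 7.24, Mog at 6.75 and Slc1a3 at 7.31.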

How the results depend on the processing

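Every alternative for late minus early gave between 953 and 1921 probe sets higher late and between 1052 and 2194 lower, against 1339 and 1492. Leaving out single arrays gave 1115 to 1655 higher and 1217 to 1893 lower, the highest without Spi-7 replicate 5 in both directions. Array weights gave 1921 and 2194, the filter on dim probe sets 1056 and 1333 of 8609, and leaving out Spi-21 replicates 1 to 3 gave 953 and 1052. Over 277 named probe sets, no called difference changed sign in any of 36 settings, while calls were lost 299 times and gained 38 times.

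Same-numbered arrays were checked for deviating together from their group means. Of 51 pairs of groups and numbers, 11 correlated above 0.1, with a range of -0.33 to 0.355. Differently numbered arrays were not correlated for reference, so this does not settle whether the numbers pair the arrays. With replicate number as a block, 1505 probe sets were higher and 1645 lower late. The block gave 310 probe sets lower in Spi-21 than in Spi-7, 317 lower in Spi-60 than in Spi-7, 5 higher and 2 lower in Spi-60 than in Spi-21, and 171 higher and 330 lower in early arrays than in controls. The cause was not tested.

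Without Spi-21 replicates 1 to 3, Spi-21 minus Spi-2 gave 238 higher and 279 lower, Spi-21 minus Spi-7 gave 15 in each direction, Spi-60 minus Spi-7 gave 286 lower, and Spi-60 minus Spi-21 gave 129 higher and 48 lower. Spi-60 minus Spi-21 gave 5 higher and 3 lower without dim probe sets and 1 lower after quantile normalization. Leaving out single arrays gave 364 to 846 higher and 478 to 967 lower for Spi-21 minus Spi-2, 22 to 584 and 16 to 850 for Spi-21 minus Spi-7, 343 to 668 and 380 to 727 for Spi-60 minus Spi-2, 85 to 461 and 31 to 599 for Spi-60 minus Spi-7, 0 to 18 and 0 to 16 for Spi-60 minus Spi-21, and 0 in both directions for Spi-7 minus Spi-2. The arrays that moved these counts by over 1.5 times were Spi-2 replicates 4 and 5, all Spi-7 arrays, Spi-21 replicates 1 to 4 and 8, and Spi-60 replicates 1, 2, 4 and 5. Early minus control ranged over 214 to 646 higher and 446 to 878 lower and late minus control over 421 to 1049 and 916 to 1674, moved most by Control replicates 1 to 3. Probe sets without overlap numbered 2 above and 1 below, and 21 above and 22 below without Spi-7 replicate 5.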

Other observations

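Probe sets of the same gene did not always move together. Of 1705 genes with several probe sets, 88 had at least 2 called in the same direction and 42 had calls in opposite directions. In 35 of these 42 the brightest called probe set was lower late. Over all probe sets, the direction of calls varied with the level. Of the 4305 with a mean of at least 6.71, 511 were higher and 736 lower late. After the further quantile normalization 737 were higher and 527 lower. Of the 4303 with a mean below 5.53, 335 were higher and 237 lower, and 297 and 241 after that normalization. Whether the count of 35 of 42 depends on the scaling was not tested. For Gch1, which makes the first intermediate of the cofactor that monoamine synthesis needs, the brighter probe set differed by -1.04 ± 0.22 and the dimmer one by 0.22 ± 0.08. For Epha4, a guidance receptor of motor axons, the brightest probe set differed by -0.82 ± 0.21 and a pair of dimmer ones by 0.26 ± 0.07 and 0.26 ± 0.09. Mapt, which encodes the microtubule protein tau, differed by -0.38 ± 0.14 on its brighter called probe set and by 0.53 ± 0.12 on a dimmer one. Elavl2, a neuronal RNA-binding protein, differed by -0.40 ± 0.08 on the probe set with an early mean of 10.60 and by 0.93 ± 0.30 on the one with an early mean of 7.48. For the chromatin protein gene Phf20 the values were -0.44 ± 0.10 and 0.98 ± 0.22. Values are late minus early on the log2 scale with their standard error, and the genes were picked after their values were seen. Which transcripts these probe sets detect was not examined.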
